A study of Mus musculus with 14 samples.

Results

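Neurofilament and axon initial segment scaffold genes were examined in parvalbumin (PV) neurons of the mouse hippocampus after chronic social defeat stress (CSDS). The set holds 8 genes of the 39017 in the count table, chosen by name with earlier results of these data known. They are the neurofilament subunits Nefl, Nefm, Nefh and Ina, the initial segment scaffold genes Ank3, Sptbn4 and Nfasc, and the microtubule-binding gene Mapt. All 8 were among the 21298 genes that passed the filter on low counts. All mice were young adult males of C57BL/6 background that carried PV-Cre and a Cre-dependent EGFP-L10a transgene, so that ribosomes tagged with EGFP are made in cells that express, or once expressed, the parvalbumin gene. In translating ribosome affinity purification (TRAP), these ribosomes are precipitated from a homogenate, here of hippocampus, and the RNA bound to them is sequenced. TRAP RNA came from 4 non-defeated mice, from 4 resilient and from 3 susceptible mice. Resilient and susceptible mice had been defeated repeatedly by CD1 aggressors, while non-defeated mice were housed in pairs without aggressors. Defeated mice were sorted in a social interaction test by a ratio. It divides the time near an enclosure that held an unfamiliar aggressor by the time near the empty enclosure, and susceptible mice had the lower ratios. Total RNA of hippocampal homogenate from non-defeated mice, taken before TRAP, gave 3 input libraries. Mice and input libraries are named below by the numbers in their sample names.

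Neurofilaments are the intermediate filaments of neurons. In central axons they are mixed polymers of the light (Nefl), medium (Nefm) and heavy (Nefh) subunits and alpha-internexin (Ina), and they widen axons, which raises conduction velocity. The axon initial segment, where action potentials start, is built on ankyrin-G (Ank3), which binds beta-IV spectrin (Sptbn4), the adhesion molecule neurofascin (Nfasc) and voltage-gated sodium and potassium channels. Tau (Mapt) binds axonal microtubules. PV neurons fire at high rates and have heavily branched axons.

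In mm10, Nefl and Nefm are neighbors on chromosome 14. Nefl lies at chr14:68083863-68089095 on the plus strand and Nefm at chr14:68082590-68124846 on the minus strand. In the GENCODE M21 annotation these overlap, and 1108 exon bases are shared, which is 32.8% of the exon bases of Nefl and 19.2% of those of Nefm. The library kit does not mark strand, so reads in the shared bases cannot be assigned to either gene, and how the counting treated them is not given in the sources used here. Nefh lies at chr11:4938754-4948064 on the minus strand and Ina at chr19:47014698-47025327 on the plus strand, where 456 of its exon bases, 14.1%, also belong to Nt5c2 on the other strand. Ank3 spans chr10:69398773-70027438 on the plus strand, Sptbn4 chr7:27356383-27447686 on the minus strand, Nfasc chr1:132564690-132741797 on the minus strand and Mapt chr11:104231390-104332090 on the plus strand. Sptbn4 shares 134 exon bases, 1.40%, with Gm20479. Counts were made per gene. They therefore do not separate the neuronal from the glial isoform of neurofascin, or the giant from the shorter ankyrin-G isoforms, among the 47 annotated transcripts of Ank3 and 10 of Nfasc.

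The promoter table matched 3 of the 8 genes, Ina, Sptbn4 and Nfasc. Of these, Ina, which differed between TRAP and input, and Sptbn4, which did not overlap between resilient and susceptible mice, are shown by the 100 bases before a start site as RefSeq gives them on GRCm38.p6, 5′ to 3′ on the strand of the gene, with the GC box GGGCGG or its complement CCGCCC in capitals. The window of Ina is chr19:47014581-47014680 on the plus strand, and those of the first and second listed start sites of Sptbn4 are chr7:27446590-27446689 and chr7:27396554-27396653 on the minus strand, both within the span of the gene given above.
Ina: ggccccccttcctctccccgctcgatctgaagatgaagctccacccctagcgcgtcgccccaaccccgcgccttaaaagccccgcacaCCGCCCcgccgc
Sptbn4 site 1: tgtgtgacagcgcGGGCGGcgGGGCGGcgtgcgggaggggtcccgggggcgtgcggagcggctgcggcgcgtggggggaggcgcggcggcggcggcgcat
Sptbn4 site 2: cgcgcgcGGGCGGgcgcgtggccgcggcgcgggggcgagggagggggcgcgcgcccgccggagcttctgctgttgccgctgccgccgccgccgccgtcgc
The GC content was 71.0%, 85.0% and 88.0%, against a median of 55.0% over all 32851 windows of this length. Of all windows, 24.7% held the motif on either strand, so a match was common. The other start sites of Sptbn4 and those of Nfasc held none.

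Total counts ran from 64110214 to 94726962 over the libraries, and the 8 genes had between 2119 and 111690 reads in a library. The 10 markers of PV interneurons were all higher in TRAP than in input (summed level 4281 to 4628 in normalized CPM, reads scaled to library size, in non-defeated mice and 605 to 714 in input), while 9 of 9 oligodendrocyte, 8 of 8 excitatory neuron, 3 of 4 oligodendrocyte precursor, 5 of 7 astrocyte and 5 of 6 microglia markers were lower. Of 8 markers of other interneurons, 2 were higher and 5 lower, and of 6 endothelial markers, 1 was higher and 1 lower. No marker of any list was at 0 in every library of a group. Between stress groups, counts over the 68 markers follow, with the thalamus list below among them. The order is resilient minus non-defeated, susceptible minus non-defeated and susceptible minus resilient. After adjustment, edgeR called 0, 0 and 0 (0.0%, 0.0376% and 1.89% of all genes). Unadjusted edgeR p-values of 2, 5 and 4 markers were under 0.05 (4.38%, 13.3% and 20.9% of all genes). DESeq2 and the likelihood ratio test of edgeR each called 0, 1 and 0. These counts do not show that cell makeup was equal. In this order, list medians of the log2 difference were 0.73, 0.83 and 0.12 for endothelial and 0.20, -0.89 and -1.01 for thalamus markers. Those of the other lists lay between -0.045 and 0.21. The libraries were not alike in 10 markers of the thalamus, a region next to the hippocampus. Their summed level was 746 CPM in resilient mouse 7, 434 in non-defeated mouse 9, 330.0 in non-defeated mouse 11 and 404 in input 14, against 52.8 to 175 CPM in the other 10 libraries. Results that rest on these 4 libraries are therefore also given without them, an alternative chosen after the data were seen.

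Among the 8 genes, neurofilament subunits had the highest levels per length in TRAP. Averaged over the 11 TRAP libraries, in CPM per kilobase of exon (RPKM), Nefl had 295 ± 54.5 (SD, n = 11), Ina 199 ± 27.1, Nefm 136 ± 33.4 and Nefh 86.2 ± 15.7. Mapt followed with 35.1 ± 3.26 RPKM. The scaffold genes were lower, with 7.25 ± 1.55 RPKM for Sptbn4, 2.62 ± 0.298 for Nfasc and 1.69 ± 0.264 for Ank3. The order of Nfasc and Ank3 depends on annotated length, because the 34838 exon bases of Ank3 include those of its longest isoforms. RPKM of Nefl, Nefm and Ina divides by all exon bases, also those shared with a gene on the other strand. How reads there were counted is not known, and their part in these levels was not tested. Between mice, Nefm varied most, with 2.02 times as many CPM in the highest as in the lowest TRAP library, and Mapt least, with 1.40 times.

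**Figure D1:**
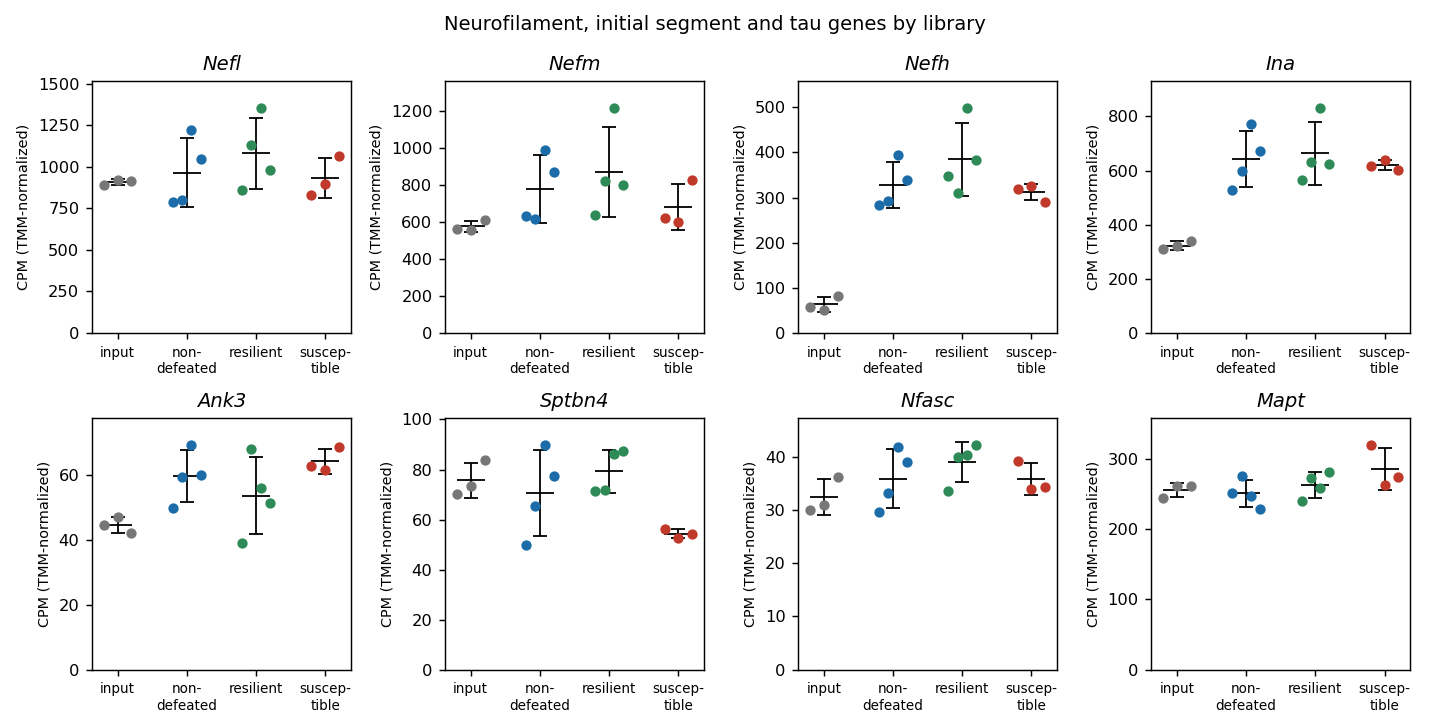
Normalized CPM of the 8 genes (y axes, from 0) in the 3 input, 4 non-defeated, 4 resilient and 3 susceptible libraries; points are libraries in the order of their sample numbers, bars the mean ± SD. Nefh and Ina in every TRAP library lie above every input library, and Sptbn4 in the 3 susceptible mice lies below the 4 resilient mice.

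The comparison of non-defeated TRAP with input asks which genes were more abundant in the RNA bound to tagged ribosomes than in the whole hippocampus. Nefh and Ina rose clearly, Ank3 rose by a smaller amount, and Nefl, Sptbn4, Nfasc and Mapt were close to their input level. Of the 8 genes, 3 passed the test as higher (edgeR quasi-likelihood test, adjusted p under 0.05) and 0 as lower. Of all genes tested, 27.4% were higher, 27.6% lower and 55.0% either. The 3 of 8 is thus above the share called higher and below the share called in either direction, and rests on 3 genes. Groups did not overlap for 4 of the 8, against 62.0% of all genes. In a bulk sample, fewer cells of a type and less RNA per cell cannot be told apart.

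Nefh, the heavy subunit with the long phosphorylated tail, had 56.9, 50.5 and 82.5 CPM in input 12, 13 and 14. In non-defeated mice 1, 6, 9 and 11 it had 284, 292, 395 and 339 CPM in TRAP. Every TRAP library was thus at more than 3 times the highest input library. The log2 fold change was 2.37 (SE 0.19, adjusted p = 2e-07 by edgeR), a 5.17-fold difference, and the exact permutation test gave p = 0.0286, the smallest that 4 against 3 libraries allow. In the order of p-values Nefh came at place 590 of the 21298 genes. Without the 4 libraries high in thalamus markers the value was 2.41 (edgeR adjusted p = 1.51e-06). Input 14, the input library highest in thalamus markers, was also the highest of the 3 in Nefh.

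Ina, alpha-internexin, had 309, 320.1 and 339.6 CPM in input 12, 13 and 14. It had 527, 599.8, 772 and 671 CPM in non-defeated mice 1, 6, 9 and 11. These groups did not overlap either, with a log2 fold change of 0.99 (SE 0.13, edgeR adjusted p = 2.33e-05), a 1.99-fold difference, and an exact permutation p of 0.0286. Without the 4 libraries it was 0.83 (edgeR adjusted p = 0.0001).

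Nefm, the medium subunit, had 563, 557 and 611 CPM in input 12, 13 and 14. Its 4 TRAP values were 633, 617, 990.3 and 873 CPM in mice 1, 6, 9 and 11. The groups did not overlap, but 2 of the 4 mice lay just above input, and both higher mice were those high in thalamus markers. The log2 difference of 0.43 (SE 0.20) did not pass the test (edgeR adjusted p = 0.0878, exact permutation p = 0.114). Without the 4 libraries it was 0.15 (edgeR adjusted p = 0.467). DESeq2 on these groups gave 0.45 and an adjusted p of 0.0114. Nefm also passed in edgeR with only these groups in the fit (0.43, adjusted p = 0.0442) and without resilient mouse 7 (0.43, adjusted p = 0.0416), so its call varied with the test and with which libraries were fitted.

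Nefl, the light subunit on which the others assemble, had 890.5, 920.2 and 915 CPM in input 12, 13 and 14, the closest agreement of any of the 8 genes among input libraries. In mice 1, 6, 9 and 11 it had 791, 801, 1219 and 1046 CPM, so that input lay in the middle of the TRAP values. Mice 1 and 6 were below all input libraries and mice 9 and 11 above them. The log2 difference was 0.085 (SE 0.16, edgeR adjusted p = 0.679) and -0.20 without the 4 libraries (edgeR adjusted p = 0.273).

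**Figure D2:**
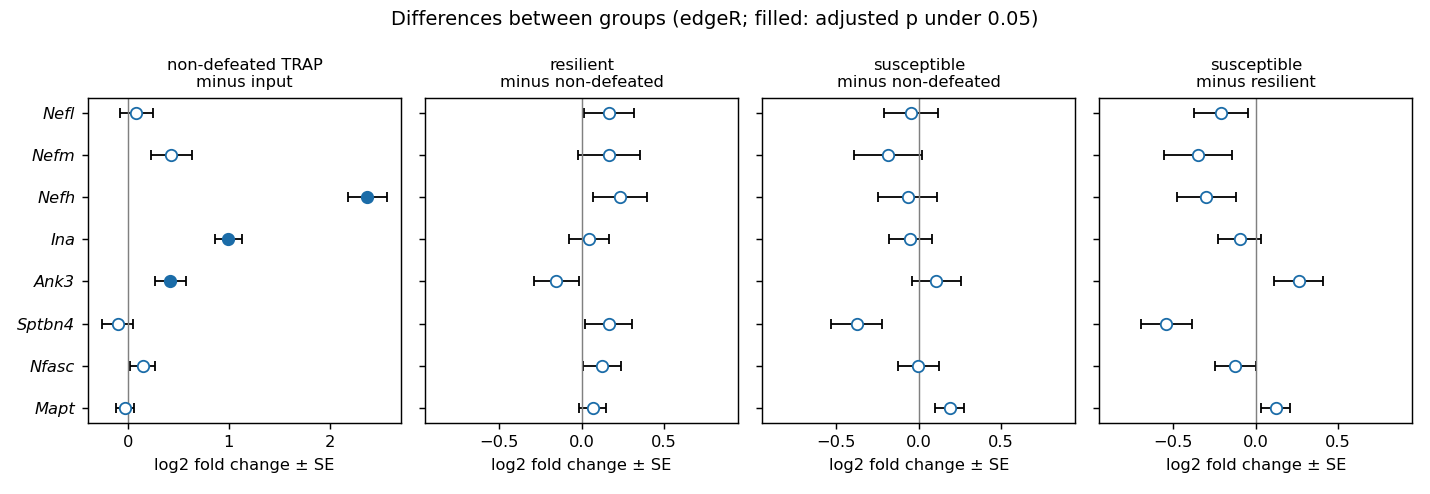
Log2 fold change ± SE of the 8 genes in each of the 4 comparisons (x axes; the first panel has a wider range than the others), with filled points for an adjusted p under 0.05 in the edgeR test. Nefh, Ina and Ank3 are filled in non-defeated TRAP against input, and no gene is filled between stress groups.

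The makeup of the filament mRNA therefore differed between TRAP and input. Of the summed RPKM of the 4 subunits, Nefh made up 3.26% ± 0.769 (SD, n = 3) in input and 11.8% ± 0.527 (SD, n = 4) in non-defeated TRAP. Ina had 20.6% ± 0.294 and 28.5% ± 1.56, Nefl 55.6% ± 1.44 and 40.6% ± 0.928, and Nefm 20.6% ± 0.502 and 19.1% ± 1.03. The shares of Nefh, Ina and Nefl did not overlap between the groups, while those of Nefm did. Shares and ratios also divide by all exon bases, and the part of bases shared with other genes was not tested. The ratio of Nefh to Nefl RPKM, which does not depend on the scaling between libraries, was 0.0540, 0.0464 and 0.0763 in input 12, 13 and 14. In non-defeated mice 1, 6, 9 and 11 it was 0.304, 0.309, 0.274 and 0.274. All TRAP values lay above all input values, 5.03-fold on average (log2 difference 2.33, exact permutation p = 0.0286, the smallest possible, and 0.114 when adjusted over the 4 comparisons).

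Between stress groups the ratio of Nefh to Nefl was not shown to differ. Its mean (± SD) was 0.290 ± 0.0185 over the 4 non-defeated, 0.304 ± 0.0506 over the 4 resilient and 0.288 ± 0.0498 over the 3 susceptible mice, with exact permutation p-values of 0.714, 0.886 and 0.543 for resilient against non-defeated, susceptible against non-defeated and susceptible against resilient mice. Resilient mouse 5 and susceptible mouse 10 both had a ratio of 0.231, below the 0.274 to 0.344 of the other 9 TRAP libraries. The same 2 mice were lowest of the 11 in summed PV interneuron markers, with 4027 and 3481 CPM against 4222 to 4895. They were highest in summed oligodendrocyte markers, with 1622 and 1447 CPM against 530.5 to 1283, and in excitatory neuron markers, with 1287 and 1235 CPM against 695 to 1042. In astrocyte markers they were also highest, with 1640 and 1744 CPM against 981 to 1535. They were not highest in oligodendrocyte precursor markers, with 19.3 and 19.0 CPM against 19.5 in non-defeated mouse 11. The same held for microglia markers, with 33.6 and 34.7 CPM against 35.3 in that mouse. The summed PV interneuron markers were higher in TRAP than in input, and those of the other lists named here lower. The part of these markers in the ratio was not tested.

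**Figure D3:**
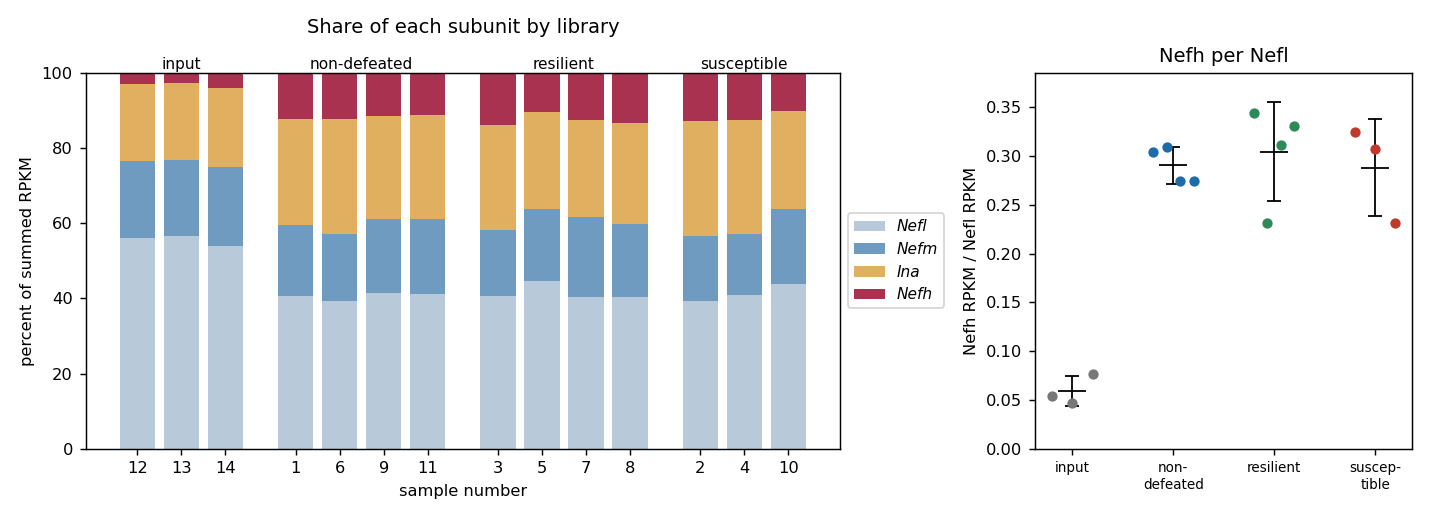
Left, percent of the summed RPKM of Nefl, Nefm, Ina and Nefh (stacked bars, y axis) in each library, by sample number and group; right, Nefh RPKM divided by Nefl RPKM by group, with points for libraries and bars for the mean ± SD. Nefh takes 2.63% to 4.12% in input and 10.2% to 13.9% in TRAP.

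Of the scaffold genes, Ank3 had 44.5, 47.0 and 42.3 CPM in input 12, 13 and 14. In TRAP it had 49.9, 59.6, 69.4 and 60.1 CPM in mice 1, 6, 9 and 11, all above input. Its log2 fold change of 0.42 (SE 0.15) passed the test (edgeR adjusted p = 0.0282, exact permutation p = 0.0571). The call ended without input 12 (edgeR adjusted p = 0.0708), input 14 (0.093) or non-defeated mouse 9 (0.0782), with scaling by total counts only (0.23, adjusted p = 0.177) and without the 4 libraries high in thalamus markers (0.25, adjusted p = 0.345).

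Sptbn4 had 70.3, 73.2 and 83.6 CPM in input 12, 13 and 14 and 49.7, 65.5, 89.9 and 77.5 in mice 1, 6, 9 and 11. The TRAP values reached both below and above input (log2 difference -0.10, SE 0.15, edgeR adjusted p = 0.604). Nfasc had 30.0, 31.0 and 36.2 CPM in input and 29.5, 33.2, 41.8 and 39.0 in TRAP, in the same order (log2 difference 0.15, SE 0.13, edgeR adjusted p = 0.337). Oligodendrocytes also make neurofascin, at the paranode, and their 9 markers fell in TRAP. The part of oligodendrocytes in the input level of Nfasc was not tested. Mapt had 244, 261 and 261 CPM in input and 252, 275, 247 and 229 in TRAP, a log2 difference of -0.026 (SE 0.088, edgeR adjusted p = 0.817).

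Gene length bears on these values. With an offset for gene length, 6 of the 8 genes passed as higher: Nefm at 0.69, Nfasc at 0.42 and Mapt at 0.28 (edgeR adjusted p = 0.00481, 0.00275 and 0.0263), beside Nefh, Ina and Ank3. Under this offset 11437 of all 21298 genes passed, 6338 of them as higher. Scaled by total counts only, the median log2 difference of all genes moved from -0.041 to -0.23 and the share of calls that were higher from 49.8% to 36.6%. Under that scaling the log2 difference of Nefl went from 0.085 to -0.10 and that of Nfasc from 0.15 to -0.043. Nefh and Ina rose under every alternative run.

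Among the partners of these genes, changes in TRAP went both ways, as they did over all genes. Of the 141 genes in these lists, 88 passed against input in either direction. Over all genes, 55.0% passed, 27.4% as higher and 27.6% as lower. These lists, too, were chosen with earlier results of these data known. Of 7 other intermediate filament genes, 2 rose and 1 fell. Vim (vimentin, log2 fold change 1.14) and Synm (synemin, 0.51) rose, and Gfap, the astrocyte filament that is also on the astrocyte list, fell by 1.34 on the log2 scale. Of 14 genes for other ankyrins and the spectrin skeleton, 1 rose and 5 fell. The one that rose was Ank1, for ankyrin-R, with 5.03 ± 1.42 CPM (SD, n = 3) in input and 49.1 ± 6.89 (SD, n = 4) in TRAP, a log2 fold change of 3.29 (SE 0.25, edgeR adjusted p = 9.1e-08), larger than that of any of the 8 genes. Tmod2, which caps actin filaments, and Epb41l2, a protein 4.1, fell by 0.65 and 1.54.

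Of 36 channel, adhesion and clustering partners at the initial segment and node, 12 rose and 19 fell (list median -0.37, all genes -0.041). The sodium channel gene Scn1a rose from 24.6 ± 4.81 to 109 ± 3.36 CPM (log2 fold change 2.14) and the axonal potassium channel gene Kcna1 from 116 ± 4.10 to 279 ± 15.5 (1.26). The sodium channel beta subunit gene Scn3b fell from 93.9 ± 9.96 to 16.4 ± 1.15 CPM (-2.51), and Schip1, whose product binds ankyrin-G, fell from 371 ± 20.3 to 141 ± 2.77 (-1.39). Adjusted p-values in edgeR were 9.76e-08, 1.7e-07, 7.35e-09 and 1.15e-08, and none of the 4 genes overlapped between groups.

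Of 29 microtubule-associated and tubulin genes, 8 rose and 7 fell. Stmn3, a stathmin, rose by a log2 value of 1.76 and Map7d2 by 1.40, while Map2, for the dendritic microtubule-associated protein, fell by 1.93 and Map7 by 1.61. Of 18 genes for axonal transport motors and adaptors, 7 rose and 4 fell. Kif1a (0.98) and the kinesin light chain gene Klc2 (0.74) rose, whereas Kif5a, for a kinesin heavy chain that carries neurofilaments, fell from 916 ± 156 CPM in input to 228 ± 77.1 in TRAP (-2.01, SE 0.22, edgeR adjusted p = 2.61e-06) and the dynein adaptor gene Bicd2 by 0.77. Kif5a thus differed in direction from Nefh and Ina.

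Of 27 kinases and phosphatases of tau and neurofilaments, 8 rose and 8 fell. Cdk5 (0.61) and the phosphatase subunit gene Ppp2r2b (0.75) rose, and Fyn (-0.47), for a Src-family kinase, fell. Of 10 turnover and assembly genes, 4 rose and 2 fell. The chaperone-linked ubiquitin ligase gene Stub1 (0.82) and Plec (1.85), for the cytolinker plectin, rose, and Trim2 (-0.41), for a ubiquitin ligase that acts on the light subunit, and Arhgef28 (-0.87), whose product binds Nefl mRNA, fell. All named genes passed at an edgeR adjusted p of 0.00993 or less. Camk2a, in the kinase list, is also on the excitatory neuron list. The medians of these lists lay between -0.24 and 0.21, other than that of the initial segment partners.

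The 3 comparisons among stress groups ask whether the TRAP levels of these genes differed with defeat and with its outcome. None of the 8 genes passed the test in any of the 3 (edgeR, adjusted p under 0.05). The comparisons share libraries with each other, so that their values are not independent. For resilient against non-defeated mice, 0 of 8 passed after adjustment (0.0% of all genes), 0 of 8 had an unadjusted p under 0.05 (4.38% of all genes) and 0 of 8 did not overlap (2.35%). DESeq2 (0.0%) and the likelihood ratio test of edgeR (0.0188% of all genes) also called 0 of the 8. Shares for DESeq2 are of the genes that it gave an adjusted p. These numbered 27482 here, and 20539 and 15937 in the comparisons that follow, in order. For susceptible against non-defeated mice the counts were 0 of 8 (0.0376%), 2 of 8 (13.3%) and 0 of 8 (8.62%), with 0 calls by DESeq2 (0.55%) and by the likelihood ratio test (0.887%). For susceptible against resilient mice they were 0 of 8 (1.89%), 1 of 8 (20.9%) and 1 of 8 (15.1%), and DESeq2 (6.3%) and the likelihood ratio test (5.16%) called 1 each. The shares above their background are 2 of 8 against 13.3% and the 1 of 8 by the other tests, which rest on 2 genes and 1 gene.

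Of the 8 genes, Sptbn4 had the largest difference between resilient and susceptible mice. It had 71.5, 72.0, 86.2 and 87.3 CPM in resilient mice 3, 5, 7 and 8. In susceptible mice 2, 4 and 10 it had 56.2, 52.7 and 54.3 CPM. The susceptible values lay close together, below all resilient values, and within the 49.7 to 89.9 CPM of non-defeated mice. The log2 difference of susceptible minus resilient mice was -0.54 (SE 0.16), with an unadjusted p of 0.00368 in edgeR, an adjusted p of 0.0792 and an exact permutation p of 0.0286, the smallest possible. The likelihood ratio test (adjusted p = 0.0314) and DESeq2 (adjusted p = 0.00135) would have called it, as would edgeR without non-defeated mouse 1 (0.0306) or with the sample number as a covariate (0.0396). In all 28 alternatives the difference kept its sign.

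The meaning of the numbers in the sample names is not given in the labels, and values were also taken within them. The log2 difference of Sptbn4 between susceptible and resilient mice was -0.40 among libraries numbered 1 to 6 and -0.68 among those numbered 7 to 11. Against non-defeated mice the difference was -0.38 (SE 0.16, unadjusted edgeR p = 0.0295, adjusted p = 0.333, exact permutation p = 0.229), with -0.067 among numbers 1 to 6 and -0.62 among numbers 7 to 11, where only 1 susceptible mouse falls. Non-defeated mice 9 and 11, high in thalamus markers, had the highest Sptbn4 of their group. Without the 4 libraries the difference was -0.51 from resilient mice (edgeR adjusted p = 0.121) and -0.074 from non-defeated ones (adjusted p = 0.98). Resilient minus non-defeated mice gave 0.17 (SE 0.14, edgeR adjusted p = 1.0).

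**Figure D4:**
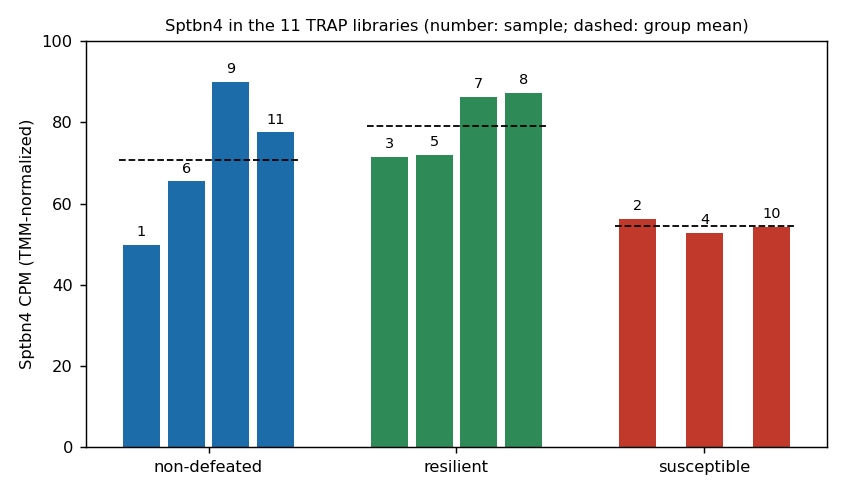
Sptbn4 in normalized CPM (y axis, from 0) in each TRAP library, by group, with the sample number above each bar and a dashed line at the group mean. The susceptible mice, at 52.7 to 56.2 CPM, lie below the 71.5 to 87.3 CPM of resilient mice, and non-defeated mice span both.

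Ank3, whose product holds beta-IV spectrin at the initial segment, went the other way without passing the test. It had 39.2, 68.1, 56.2 and 51.4 CPM in resilient mice 3, 5, 7 and 8 and 62.7, 61.6 and 68.7 in susceptible mice 2, 4 and 10. Resilient mouse 5 lay among the susceptible values and the other 3 below them (log2 difference susceptible minus resilient 0.26, SE 0.15, edgeR adjusted p = 0.339). Nfasc had 33.6, 39.9, 40.4 and 42.2 CPM in resilient and 39.2, 33.8 and 34.3 in susceptible mice, in the same order of mice, with a difference of -0.12 (SE 0.13, edgeR adjusted p = 0.621). Mapt had 252, 275, 247 and 229 CPM in non-defeated mice 1, 6, 9 and 11. In resilient mice 3, 5, 7 and 8 it had 239, 273, 258 and 281 CPM, and in susceptible mice 2, 4 and 10 it had 319.9, 263 and 275. Susceptible mouse 2 was above every other library, and the other susceptible mice were within the range of resilient mice. The log2 difference of Mapt was 0.19 between susceptible and non-defeated mice (SE 0.087, unadjusted edgeR p = 0.0487, adjusted p = 0.373, exact permutation p = 0.114) and 0.12 between susceptible and resilient mice (adjusted p = 0.462).

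The neurofilament subunits had their highest group means in resilient mice, by less than the spread between mice. Nefl had 859, 1133, 1354 and 980.2 CPM in resilient mice 3, 5, 7 and 8 and 832, 899.6 and 1066 in susceptible mice 2, 4 and 10. Nefm had 641, 824, 1218 and 803 CPM in resilient and 623, 603 and 827 in susceptible mice. In both genes resilient mouse 7 was above every other library, and the groups overlapped.

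Nefh had 349, 309, 498 and 383 CPM in resilient mice 3, 5, 7 and 8 and 319, 327 and 291 in susceptible mice 2, 4 and 10. Ina had 564, 632, 831 and 624 CPM in resilient and 617, 638 and 604 in susceptible mice. Mouse 7 was again the highest of the 11 in both. The log2 difference of susceptible minus resilient mice was -0.21 for Nefl, -0.35 for Nefm, -0.30 for Nefh and -0.097 for Ina (SE 0.16, 0.20, 0.18 and 0.13; edgeR adjusted p from 0.35 to 0.722). Without the 4 libraries, which include mouse 7, these were -0.095, -0.15, -0.16 and 0.022. Resilient minus non-defeated mice gave 0.17, 0.16, 0.23 and 0.044, and susceptible minus non-defeated mice -0.047, -0.19, -0.067 and -0.052, with adjusted p-values of 1.0 in the former and from 0.714 to 0.925 in the latter (edgeR).

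The subunits varied together between mice. Over the 11 TRAP libraries, Pearson's r of log2 CPM was 0.96 for Nefl and Nefm, 0.85 for Nefl and Ina, 0.84 for Nefm and Ina, 0.83 for Nefh and Ina, 0.75 for Nefm and Nefh and 0.70 for Nefl and Nefh. In permutation tests adjusted over the 6 pairs, p was 0.00036, 0.00129, 0.00196, 0.00291, 0.00907 and 0.0136 in this order. Spearman's rho was lower, at 0.85, 0.81, 0.60, 0.70, 0.52 and 0.58, with adjusted permutation p-values of 0.0114, 0.0114, 0.0782, 0.0406, 0.107 and 0.0782. With deviations from group means in place of levels, r was 0.96, 0.86, 0.85, 0.88, 0.71 and 0.64.

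These correlations rested in part on few mice. Without the 2 libraries farthest from the median of the first gene, r was 0.90 for Nefl and Nefm, 0.62 for Nefl and Ina, 0.81 for Nefm and Ina, 0.41 for Nefh and Ina, 0.54 for Nefm and Nefh and 0.21 for Nefl and Nefh. Without resilient mouse 7 alone, r was 0.47 for Nefl and Nefh, 0.50 for Nefm and Nefh and 0.66 for Nefh and Ina (adjusted permutation p = 0.167, 0.167 and 0.0535). The libraries left out in pairs were resilient mouse 7 with non-defeated mouse 9 or, for pairs with Nefm first, with susceptible mouse 4. For pairs with Nefh the value of r thus depended on which libraries were in it. The 3 TRAP libraries high in thalamus markers were also those with the highest Ina and, apart from resilient mouse 5 and susceptible mouse 10 in Nefl, with the highest Nefl and Nefm. In the 8 other TRAP libraries r was 0.90 for Nefl and Nefm (exact permutation p = 0.009, adjusted 0.054), 0.55 for Nefl and Ina, 0.32 for Nefm and Ina, 0.35 for Nefh and Ina, 0.16 for Nefm and Nefh and 0.15 for Nefl and Nefh, with adjusted exact p-values from 0.432 to 0.723. Without the 2 of these 8 farthest from the median of the first gene, resilient mouse 5 and susceptible mouse 10, r was 0.75 for Nefl and Nefm, 0.61 for Nefl and Ina, 0.18 for Nefm and Ina, 0.74 for Nefm and Nefh and 0.92 for Nefl and Nefh. For Nefh and Ina it was 0.78 without resilient mice 3 and 8. The low values with Nefh among the 8 thus rested on 2 libraries as well. Nefl and Nefm share exon bases, and the part of reads there in their r was not tested.

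**Figure D5:**
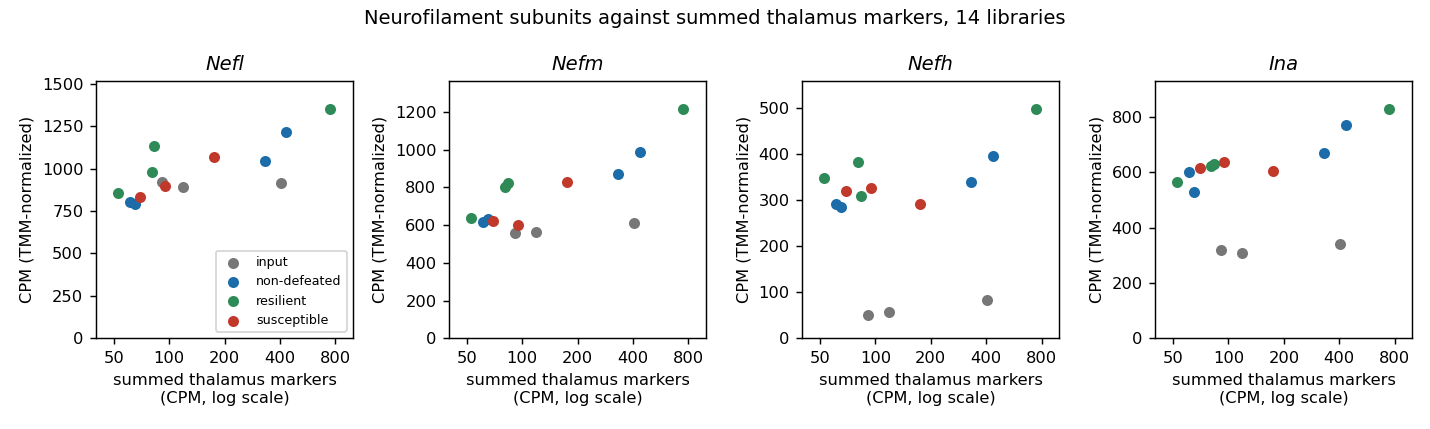
Normalized CPM of Nefl, Nefm, Nefh and Ina (y axes, from 0) against the summed CPM of 10 thalamus markers (x axes, log scale) in the 14 libraries, colored by group. The TRAP library with 746 CPM of thalamus markers, resilient mouse 7, has the highest level of all 4 subunits, and input lies below all TRAP libraries in Nefh and Ina.

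Among 12202 genes with a mean of at least 5 CPM in TRAP, those most like each gene over the 11 TRAP libraries were named by Pearson's r of log2 CPM, as a description. These were Eml1 (0.97) and Gss (0.96) for Nefl, Larp6 (0.98), Eml1 (0.97) and Noct (0.96) for Nefm, Rab11fip4 (0.93), Ache (0.93) and Fkbp4 (0.93) for Nefh, and Ccdc92b (0.95), Rgs4 (0.94) and Plekha6 (0.93) for Ina. Only Eml1 stood in more than 1 of these lists. For Ank3 they were Sptbn1 (0.96), Eef2 (0.95) and Nt5dc3 (0.95), for Sptbn4 Brsk2 (0.99), Flcn (0.97) and Tom1l2 (0.97), for Nfasc Disp2 (0.95), Os9 (0.93) and Cul9 (0.93), and for Mapt Ttbk1 (0.94), Srrm3 (0.92) and Bod1l (0.90). No gene of the 8 was among the 3 most like another. Depth, dissection and group are shared by all genes of a library, and each r is over 11 points chosen as highest of many.

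Among the 141 genes of the partner lists, 2 passed between susceptible and resilient mice (1.89% of all genes passed) and 40 had an unadjusted p under 0.05 (20.9% of all genes). The likelihood ratio test called 7 of the 141 (5.16% of all genes) and DESeq2 8 (6.3% of the 15937 genes that it gave an adjusted p). Kcnq3, for a potassium channel subunit that ankyrin-G holds at the initial segment, had 19.3 ± 3.04 CPM in the 3 susceptible mice and 11.4 ± 1.29 in the 4 resilient mice (log2 fold change 0.76, SE 0.12, edgeR adjusted p = 0.0225). Mapk8, for the kinase JNK1, had 23.0 ± 2.11 and 14.2 ± 2.13 CPM (0.70, SE 0.13, edgeR adjusted p = 0.0342). Both were higher in every susceptible than in every resilient mouse, and opposite in sign to Sptbn4. Both calls were fragile, with the fold change kept between 0.64 and 0.87 for Kcnq3 and between 0.62 and 0.79 for Mapk8 over 28 alternatives. Kcnq3 lost its call in 8 of these, namely without resilient mouse 3 or 8 or susceptible mouse 2, with those groups or the TRAP libraries only, within numbers 1 to 6 or 7 to 11, and without the 4 libraries high in thalamus markers (edgeR adjusted p from 0.0505 to 0.286). Mapk8 lost it in 13, which were the same 8 and those without input 12, 13 or 14, resilient mouse 7 or susceptible mouse 4 (adjusted p from 0.0533 to 0.287). Of the other lists, each with 0 calls, the gene with the smallest p was Map4 (-0.31), Epb41l3 (-0.52), Klc2 (-0.35), Tardbp (0.23) and Lmna (-0.42), with edgeR adjusted p-values of 0.0546, 0.0586, 0.0589, 0.141 and 0.172.

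For susceptible against non-defeated mice, all 7 partner lists had 0 calls (edgeR), with 20 of their 141 genes at an unadjusted p under 0.05 (13.3% of all genes). DESeq2 called 0 of them (0.55% of the 20539 genes that it gave an adjusted p) and the likelihood ratio test 1 (0.887% of all genes). The smallest p in each list belonged to Mapk8 (0.54), Dlg2 (-0.49), Map4 (-0.25), Lmnb1 (-0.92), Epb41l3 (-0.36), Tardbp (0.19) and Klc2 (-0.20), with adjusted p-values from 0.152 to 0.369. For resilient against non-defeated mice all 7 lists also had 0 calls, with 7 of the 141 genes at an unadjusted p under 0.05 (4.38% of all genes). DESeq2 and the likelihood ratio test called 0 of them. The smallest p belonged to Bicd2 (0.27), Kcnq3 (-0.33), Map7d1 (0.18), Gsk3b (-0.15), Lmnb1 (-0.57), Dmtn (0.12) and Trim2 (0.096), each with an adjusted p of 1.0.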

How the data were processed

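RNA of TRAP and input samples was made into cDNA with SMART-Seq v4 and into Nextera XT libraries, which do not mark strand, and sequenced on a NextSeq 500. The authors trimmed reads with fastp, aligned them to mm10 with STAR (the submitters' notes name 2.5.3a; the paper names another version) and deposited raw read counts per Ensembl gene for 14 libraries, counted with HTSeq per the submitters' notes. The annotation behind the counts is not given in the sources used here.

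Symbols, lengths and coordinates were taken from GENCODE M21 (37693 of 39017 identifiers matched), and sequences from RefSeq on GRCm38.p6. Library totals ranged from 64110214 to 94726962 counts. Groups came from the sample labels. The 8 genes and the lists were chosen with earlier results of these data known. In edgeR 4.0.16 (R 4.3.3), genes were filtered with filterByExpr (21298 kept), scaled by TMM and fitted with the quasi-likelihood method over all libraries together, p-values being adjusted by Benjamini-Hochberg across every gene kept, with a threshold of 0.05. Standard errors are those of the fitted log2 fold changes. The study's methods name DESeq2 on the groups compared, which was run as an alternative (DESeq2 1.42.0). CPM values are TMM-normalized, RPKM divides them by the union of exons, and exact 2-sided permutation tests used log2 CPM with a prior count of 2. Correlations used 100000 permutations. The subunit ratio was tested exactly. Calculations outside R used Python 3.11.15, numpy 2.4.6 and pandas 2.3.3. The fit was tested on simulated data.

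Named genes were the 8, the 2 genes of smallest p in each direction per list (where none passed, the 1 of smallest p) and the 3 most alike per gene; 2 genes that this rule names are not reported here. No pair of replicates agreed within counting noise (smallest chi-square per degree of freedom 14.0). TRAP libraries are treated as 1 mouse each, since the paper gives their number as the group size. The p-values of input measure the spread between its samples, which may be technical. Alternatives were other scalings, filters, offsets for gene length and GC content (97.97% of genes had values), smaller fits, other tests, sample number as a covariate or subset and leaving out each library. The fit without libraries high in thalamus markers (over 300 CPM summed) and the counts per list under the alternatives were added after seeing the data.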

Additional observations from a re-analysis of the deposited data

Results flagged for a closer look

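Sptbn4 was the 1 gene of the 8 in which all 4 resilient mice lay above, and all 3 susceptible mice below, the mean of non-defeated mice on the log2 scale. The direct comparison of susceptible with resilient mice gave a log2 difference of -0.54 and an edgeR adjusted p of 0.0792, above the threshold. None of the 16 groups of 4 libraries, in 8 genes, held a library set apart from the others by the Dixon test, in which chance marks about 1 in 20 groups.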

How the results depend on the processing

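No paired analysis was run: the groups share no sample numbers, and the labels do not say whether input and TRAP libraries came from the same mice. Of 864 alternative values of the fold changes of the 8 genes, 809 kept their direction and their side of the threshold, 5 lost a call, 9 gained one and 41 changed sign; the changed calls, of Nefm, Ank3, Nfasc, Mapt and Sptbn4, stand with those genes above. The causes of the changes were not tested. Against input, 6 of the 8 genes passed with a length offset in place of 3, while 11437 of all 21298 genes passed in place of 11719. The sign of uncalled differences changed for Nefl with total counts only (-0.10) and without libraries high in thalamus markers (-0.20), for Sptbn4 (0.19) and Mapt (0.28, called) with the length offset, for Nfasc with total counts only (-0.043) and for Mapt without the thalamus-high libraries (0.052). Leaving out 1 library at a time gave -0.048 to 0.17 for Nefl, -0.24 to 0.036 for Sptbn4 and -0.074 to 0.024 for Mapt. For resilient against non-defeated mice, all genes gave 4 calls in the likelihood ratio test (0 in edgeR's quasi-likelihood test, 933 genes at an unadjusted p under 0.05), Mapt was at -0.038 among libraries numbered 1 to 6, and leaving out 1 library gave -0.042 to 0.30 for Nefm and -0.083 to 0.14 for Ina, both lowest without resilient mouse 7. For susceptible against non-defeated mice, the 8 calls over all genes became 189 in the likelihood ratio test, 113 in DESeq2, 16 with at least 10 counts in every library, 13 with RLE factors, 5 with those groups only, 3 with the length offset, 1 among numbers 7 to 11 and 0 with TRAP libraries only, with number as a covariate, among numbers 1 to 6 or without thalamus-high libraries, and 0 to 19 without 1 library. In that comparison, with number as a covariate, among numbers 1 to 6 and without thalamus-high libraries, Nefl was at 0.032, 0.11 and 0.24, Ina at 0.0039, 0.14 and 0.15 and Nfasc at 0.050, 0.21 and 0.20. Nefh was at 0.15 among numbers 1 to 6 and at 0.13 without thalamus-high libraries, where Nefm was at 0.14. Nfasc, near 0, was at 0.0056 with RLE factors, 0.013 with total counts, 0.0029 with the count minimum, 0.033 with the length and 0.0030 with the GC offset. Leaving out 1 library gave -0.15 to 0.086 for Nefl, -0.13 to 0.035 for Nefh, -0.14 to 0.048 for Ina and -0.085 to 0.079 for Nfasc, all highest without non-defeated mouse 9. For susceptible against resilient mice, 1 of the 8 genes, Sptbn4, passed in the likelihood ratio test, in DESeq2 and with number as a covariate, and 0 to 1 without 1 library (1 without non-defeated mouse 1). The 403 calls over all genes became 1109 with number as a covariate, 1099 in the likelihood ratio test, 1004 in DESeq2, 166 with the GC offset, 126 without a filter, 3 among numbers 7 to 11, 1 with TRAP libraries only and 0 with those groups only, among numbers 1 to 6 or without thalamus-high libraries, and 6 to 1058 without 1 library (6 without resilient mouse 8, 1058 without susceptible mouse 10). Ina was at 0.051 among numbers 1 to 6, 0.022 without thalamus-high libraries and -0.17 to 0.030 without 1 library. The log2 difference of the Nefh to Nefl ratio between TRAP and input was 2.17 to 2.53 without 1 library and 2.61 without thalamus-high libraries, where an exact test can no longer reach the threshold. Between stress groups, without 1 library, it was -0.010 to 0.18 (resilient minus non-defeated), -0.12 to 0.12 (susceptible minus non-defeated) and -0.21 to 0.071 (susceptible minus resilient), and -0.043 for resilient minus non-defeated mice without thalamus-high libraries. Without thalamus-high libraries r was 0.90 for Nefl and Nefm, 0.15 for Nefl and Nefh, 0.55 for Nefl and Ina, 0.16 for Nefm and Nefh, 0.32 for Nefm and Ina and 0.35 for Nefh and Ina, none with an adjusted p under the threshold. Without 1 library r was 0.47 to 0.79 for Nefl and Nefh, 0.50 to 0.83 for Nefm and Nefh and 0.66 to 0.89 for Nefh and Ina, each lowest without resilient mouse 7. Over the lists other than the 8 genes, counts of calls against input stayed within 1.5 times those given, and between susceptible and resilient mice lay between 0 and 3 per list (Kcnq3 and Mapk8 are given above). With 3 or 4 libraries a group, exact tests cannot go below 0.0286.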
